A study of Mus musculus with 35 samples.

Results

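Annexins and S100 proteins, the 2 families of calcium-binding proteins followed here, were represented by 8 genes of the 33292 in the expression table: Anxa1, Anxa2, Anxa3, Anxa5, S100a4, S100a6, S100a10 and S100a11. The members were chosen by gene name and matched by symbol to the Ensembl identifiers of the table, and each of the 8 had 1 row. Annexins are cytosolic proteins that attach to negatively charged phospholipids when calcium rises, and they take part in membrane repair, vesicle traffic and the linking of membrane to actin. S100 proteins are mostly small dimers with EF-hand calcium sites, and they bind target proteins, among them annexins. S100a10 forms a heterotetramer with Anxa2, S100a11 binds Anxa1 and S100a6 binds several annexins. In the kidney glomerulus the podocyte, the cell whose foot processes form the filtration barrier, depends on its cortical actin and its membrane to stay attached, and several of these genes are known from injured epithelia.

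The data were RNA-seq profiles of podocytes from 35 mice in 6 groups. Lmx1b, the transcription factor gene mutated in nail-patella syndrome, was present as a wild-type and a floxed allele (+/lox, labelled WT, the controls) or as a knock-in and a floxed allele (H77L/lox or C118F/lox, each changing a zinc-binding residue in one of the protein's LIM domains), and each genotype received DMSO (6 mice each) or the proteasome inhibitor bortezomib (Btz, 0.3 µg per g body weight, in 6 +/lox, 6 H77L/lox and 5 C118F/lox mice). All groups, controls included, carried an rtTA transgene active in podocytes, tetO::Cre and the mT/mG reporter and drank doxycycline (2 mg/ml), so that Cre removed the floxed allele in podocytes. The controls thus kept 1 wild-type allele and the knock-in podocytes only the mutant allele, animals were 7 to 10 weeks old, and green cells were sorted from isolated glomeruli on day 7. Levels are given as TPM (a share of each library scaled to transcript length and to a fixed library total), and the read number behind a library is unknown.

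All members except Anxa1, Anxa2 and Anxa3 lie on mouse chromosome 3 (GRCm39, GENCODE vM39). S100a4 is at chr3:90511074-90513354, S100a6 at chr3:90520140-90535843, S100a11 at chr3:93414382-93435293 and S100a10 at chr3:93462213-93474510. Anxa5 is at chr3:36503072-36530126, Anxa1 at chr19:20350792-20368374, Anxa2 at chr9:69360542-69399077 and Anxa3 at chr5:96940544-96993828. For the 3 genes that carry most of what follows, the 250 bases before the annotated canonical start are shown 5′ to 3′ on the gene's strand, since S100a6 and S100a10 were higher and Anxa2 lower in the same podocytes. They are at chr3:90519890-90520139, chr3:93461963-93462212 and chr9:69360652-69360901 of GRCm39, all on the plus strand, and capitals mark matches to the motifs named after them.
S100a6: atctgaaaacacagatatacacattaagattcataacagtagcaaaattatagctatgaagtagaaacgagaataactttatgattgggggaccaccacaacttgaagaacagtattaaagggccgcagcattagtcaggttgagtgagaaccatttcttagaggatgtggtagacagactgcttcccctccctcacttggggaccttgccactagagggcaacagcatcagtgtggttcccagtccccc
S100a10: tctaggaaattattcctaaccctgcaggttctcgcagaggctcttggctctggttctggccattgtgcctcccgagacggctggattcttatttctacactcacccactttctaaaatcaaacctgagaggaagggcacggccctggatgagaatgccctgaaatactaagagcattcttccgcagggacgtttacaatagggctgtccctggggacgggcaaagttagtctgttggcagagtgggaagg
Anxa2: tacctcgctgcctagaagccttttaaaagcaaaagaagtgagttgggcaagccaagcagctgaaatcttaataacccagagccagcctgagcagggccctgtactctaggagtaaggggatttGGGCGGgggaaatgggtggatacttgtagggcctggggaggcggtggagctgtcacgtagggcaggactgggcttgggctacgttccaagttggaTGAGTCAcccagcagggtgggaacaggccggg
Over both strands of such windows of 21636 protein-coding genes, TGANTCA (a loose AP-1 pattern with any base at N) was found in 6.18%. The share with TGAGTCA alone is smaller or equal and was not counted. TAATTA (an AT-rich core bound by many homeodomain proteins) was found in 5.18%, GGAATG (TEAD) in 12.1% and GGGCGG (GC box) in 36.4%. Anxa2 held 1 GC box, 127 to 122 bases before its start, and 1 TGAGTCA, 32 to 26 bases before it, which did not overlap. S100a6 and S100a10 held none of these letters in the window, and none of the 8 members held TAATTA or GGAATG. Of the other members, S100a11 held a TGAGTCA 10 to 4 bases before its start and Anxa3 held 2 GC boxes.

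The sorted cells carried podocyte markers in every mouse: all 10 genes of the podocyte list were above 0 in all 6 groups. In each of the 4 comparisons of knock-in with control mice, 7 of the 10 were called lower, where 22.4% and 16.6% of all genes were lower in H77L/lox and C118F/lox mice under DMSO and 11% and 12.4% under bortezomib, and Cd2ap was called higher in H77L/lox DMSO mice (0.30, adjusted p = 0.0152). Synpo, which encodes the actin-associated protein synaptopodin, fell in both knock-in lines under DMSO (log2 fold change -2.06 and -2.44, adjusted p = 4.9e-06 and 2.7e-06) and under bortezomib (-1.28 and -1.81, adjusted p = 4.2e-07 and 1.7e-07). In bulk samples fewer cells of a type and less RNA per cell cannot be told apart. The mesangial and fibroblast markers had median sums of 542 to 859 TPM in the knock-in groups against 75.1 and 75.4 TPM in the controls, and the most abundant was Des, with a median of 29.9 TPM in +/lox DMSO and 556 TPM in C118F/lox DMSO mice. Of the same list Itga8, Gata3 and Pdgfra had group medians of at most 0.363 TPM, and Dcn was at 0.0163 TPM in C118F/lox DMSO mice. Of the 10 genes 5 were tested, and Des, Pdgfrb and Ptn were higher in all 4 comparisons and Cspg4 in all except H77L/lox Btz mice, while Agtr1a was lower in H77L/lox (-0.79, adjusted p = 0.0402) and C118F/lox mice (-1.44, 0.00233) under bortezomib. Of the 7 parietal epithelial markers, 4 of 5 tested were higher in each line under DMSO, 2 of 4 in H77L/lox Btz and 3 of 5 in C118F/lox Btz mice and none lower, where 22.4%, 13.7%, 12.5% and 15.1% of all genes were higher, with Cldn1 at a median of 24.0 TPM in +/lox DMSO and 93.1 TPM in H77L/lox DMSO mice. Cd44, with a median of 0.477 TPM in +/lox DMSO mice, was among the 5 tested and not among the 4. Endothelial markers had median sums of at most 27.9 TPM over the 6 groups, and the 1 of 10 tested was not called. Leukocyte markers had median sums of 28.5, 17.7 and 27.1 TPM in +/lox, H77L/lox and C118F/lox mice under DMSO and of 7.84, 13.5 and 22.9 TPM under bortezomib, with Ptprc, the pan-leukocyte gene, at a median of at most 0.0233 TPM. Of their 10 genes 1 to 4 were tested, and Csf1r, a receptor of macrophages, was higher in all 4 comparisons, with medians of 3.67, 10.8 and 8.33 TPM under DMSO and 2.82, 9.51 and 11.9 TPM under bortezomib. Cd68, also of macrophages, was called higher in C118F/lox Btz mice, where its median was 5.98 TPM against 0.464 TPM, and Lyz2 lower in C118F/lox DMSO mice (-2.999, adjusted p = 0.0361). Tubule markers had median sums of 132 and 120.5 TPM in the controls and 18.9 to 27.0 TPM in the knock-in groups, but of the 2 to 5 tested only Kap was called lower, in C118F/lox DMSO mice (-2.87, 0.043). Cubn, the gene of a proximal tubule endocytic receptor, went the other way and was called higher in H77L/lox DMSO, H77L/lox Btz and C118F/lox Btz mice, with medians of 3.35, 3.27 and 5.89 TPM against 0.0886 TPM (+/lox DMSO) and 0.323 TPM (+/lox Btz). Cubn, Cd68 in C118F/lox Btz mice, Cspg4 under DMSO and Cd44 wherever it was tested passed the filter on low values only through the knock-in groups. Agtr1a under bortezomib, and Lyz2 and Kap in C118F/lox DMSO mice, passed it only through the controls. Calls of these genes in these comparisons are therefore no support for a change. The part of these markers in the differences below was not tested.

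Some libraries stood apart. Replicate 1 of the +/lox DMSO group had the lowest agreement with the other mice (median Pearson r = 0.923) and held 476 TPM of leukocyte markers, where the group's median was 28.5 TPM, and 564 TPM of mesangial and fibroblast markers, led by Lyz2 among the former (285 TPM) and Dcn among the latter (272 TPM). Replicate 2 of that group held 1799 TPM of tubule markers, and replicate 1 of the C118F/lox DMSO group 183 TPM of endothelial markers. In 7 of the 35 libraries the endothelial, leukocyte and tubule markers together exceeded 300 TPM: 3 +/lox DMSO, 1 H77L/lox DMSO, 2 C118F/lox DMSO and 1 +/lox Btz. Results are therefore also given without these 7, a choice made after the values were seen. Ratios of low values shared between libraries gave a relative estimate of the TPM that 1 read is worth, which was 3.58 times that of the median mouse in C118F/lox Btz replicate 2 and 0.791 to 1.38 times in the other mice. The estimate rested on 5.53% of the low genes in that library, which had 15004 genes above 0, where the others had 14316 to 16956. Without that mouse the S100a6 difference between C118F/lox and +/lox Btz mice was 3.07 (adjusted p = 1.2e-04) and that of S100a10 1.07 (7.0e-05).

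In control podocytes 6 of the 8 transcripts were abundant. Under DMSO the mean level of S100a11 was 2221 TPM ± 468 (SD, n = 6), the 39th highest of all genes. Anxa2 followed at 937 TPM ± 115 and Anxa5, with a median of 935 TPM, ranks 127 and 130. S100a10 (614 TPM ± 71.4), Anxa3 (584 TPM ± 42.2) and Anxa1 (522 TPM ± 75.4) formed the next tier, whose ranges overlapped. S100a6 was far below them at 33.9 TPM ± 25.3, rank 4357, and S100a4, also known as fibroblast-specific protein, was listed at 0 in 3 of the 6 mice and stayed below 2 TPM in the others. S100a6 and S100a4 were thus the members with low levels in the controls.

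**Figure D1:**
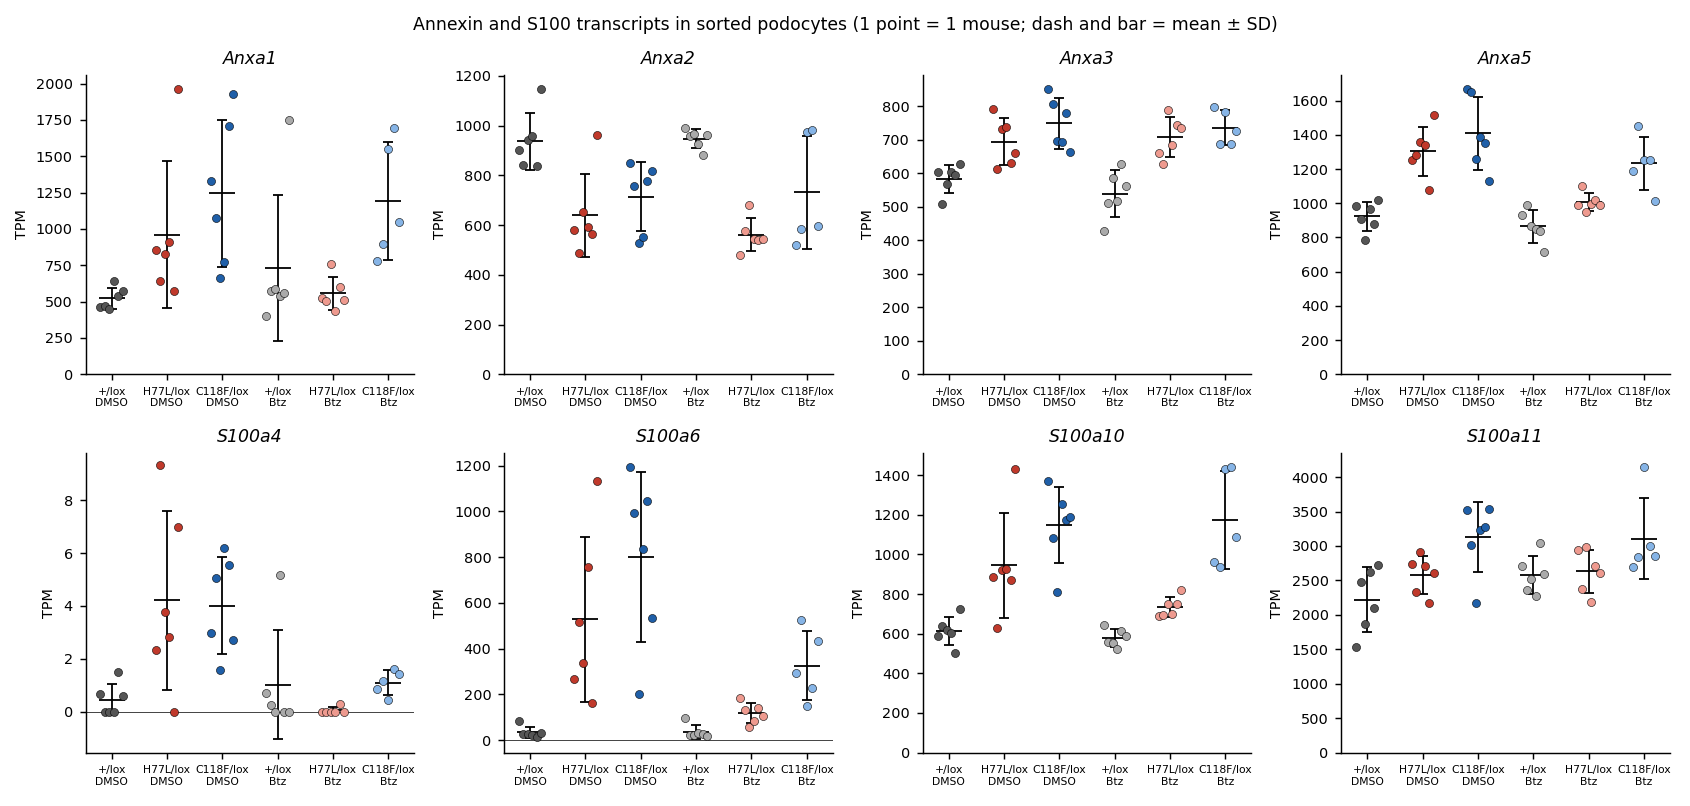
Levels of the 8 transcripts in TPM (linear axes) in each of the 35 mice, by genotype and treatment (Btz, bortezomib), with 1 point per mouse and mean ± SD as dash and bar. S100a6 lies between 14.2 and 97.5 TPM in the 12 control mice and between 59.3 and 1196 TPM in the 23 knock-in mice, while Anxa2 is lower in the knock-in groups.

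Under DMSO both knock-in lines had more mRNA of most members and less of Anxa2, and under bortezomib fewer members were called. In H77L/lox against +/lox mice under DMSO, 5 of the 7 members tested were higher (Anxa1, Anxa3, Anxa5, S100a6 and S100a10) and 1 was lower (Anxa2) at an adjusted p under 0.05 (limma, Benjamini-Hochberg over all genes). In that comparison 44.8% of all 10964 genes tested were called, 22.4% higher and 22.4% lower. In C118F/lox against +/lox mice under DMSO, 6 of the 7 members other than S100a4 were higher and 1 was lower, where 30.4% of all genes were called, 13.7% higher and 16.6% lower. Under bortezomib, 3 of 7 were higher and 1 lower in H77L/lox mice (all genes 23.6%, 12.5% higher and 11% lower), and 4 of 7 were higher in C118F/lox mice (all genes 27.5%, 15.1% higher and 12.4% lower). The median log2 fold change of the 7 members was 0.50 (H77L/lox DMSO), 0.60 (C118F/lox DMSO), 0.22 (H77L/lox Btz) and 0.51 (C118F/lox Btz), against medians of all genes between -0.06 and 0.00. The 2 comparisons under each treatment share their control mice.

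Without the 7 libraries with markers of other cells, Anxa1, Anxa3 and S100a10 kept their direction in H77L/lox DMSO mice but had adjusted p-values of 0.0541, 0.115 and 0.0781. Of the 7 members tested at first, Anxa5, S100a6 and Anxa2 stayed called there. In C118F/lox DMSO mice Anxa3 (0.0953) and S100a11 (0.275) were no longer called.

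S100a6, or calcyclin, which is produced in proliferating and stressed epithelia, had the largest log2 fold change of the members tested in each of the 4 comparisons of knock-in with control mice. In +/lox DMSO mice its level ran from 14.2 TPM over a median of 26.4 TPM to 84.2 TPM. In H77L/lox DMSO mice it ran from 162 over 427 to 1130 TPM, and in C118F/lox DMSO mice from 200 over 915 to 1196 TPM. Every knock-in mouse under DMSO was thus above every control, and mice of the same genotype still differed several-fold. The log2 fold change was 3.86 (SE 0.45, 95% interval 2.91 to 4.81, adjusted p = 1.1e-05) in H77L/lox and 4.55 (SE 0.43, 3.62 to 5.47, 2.5e-06) in C118F/lox mice. Groups that did not overlap, with the knock-in mice higher, were seen for 11% and 6.48% of all genes in these comparisons (6.8% in H77L/lox and 9.01% in C118F/lox mice under bortezomib). The highest control was the library with leukocyte and fibroblast markers, and without it the log2 fold changes were 4.17 and 4.85.

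Under bortezomib S100a6 remained higher in both knock-in lines, at lower levels. In +/lox Btz mice it ran from 16.5 over 24.9 to 97.5 TPM, and in H77L/lox Btz mice from 59.3 over 120 to 184 TPM. The 5 C118F/lox Btz mice had 151, 230, 291, 432 and 527 TPM. One control, replicate 1 of the +/lox Btz group, overlapped the H77L/lox range, and no control overlapped the C118F/lox range. The log2 fold change was 1.87 (SE 0.35, 1.13 to 2.61, adjusted p = 8.5e-04) in H77L/lox and 3.28 (SE 0.39, 2.44 to 4.12, 2.6e-05) in C118F/lox mice.

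The study's stricter cutoffs asked for more than a log2 fold change of 2 in size together with an adjusted p below 0.001, and S100a6 was the only member that passed them. It passed in H77L/lox DMSO, C118F/lox DMSO and C118F/lox Btz mice, where 1.62%, 1.63% and 1.52% of all genes were called higher, and not in H77L/lox Btz mice (0.925% of all genes). Without replicate 1 of the +/lox Btz group or without replicate 3 of the H77L/lox Btz group it passed there too.

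**Figure D2:**
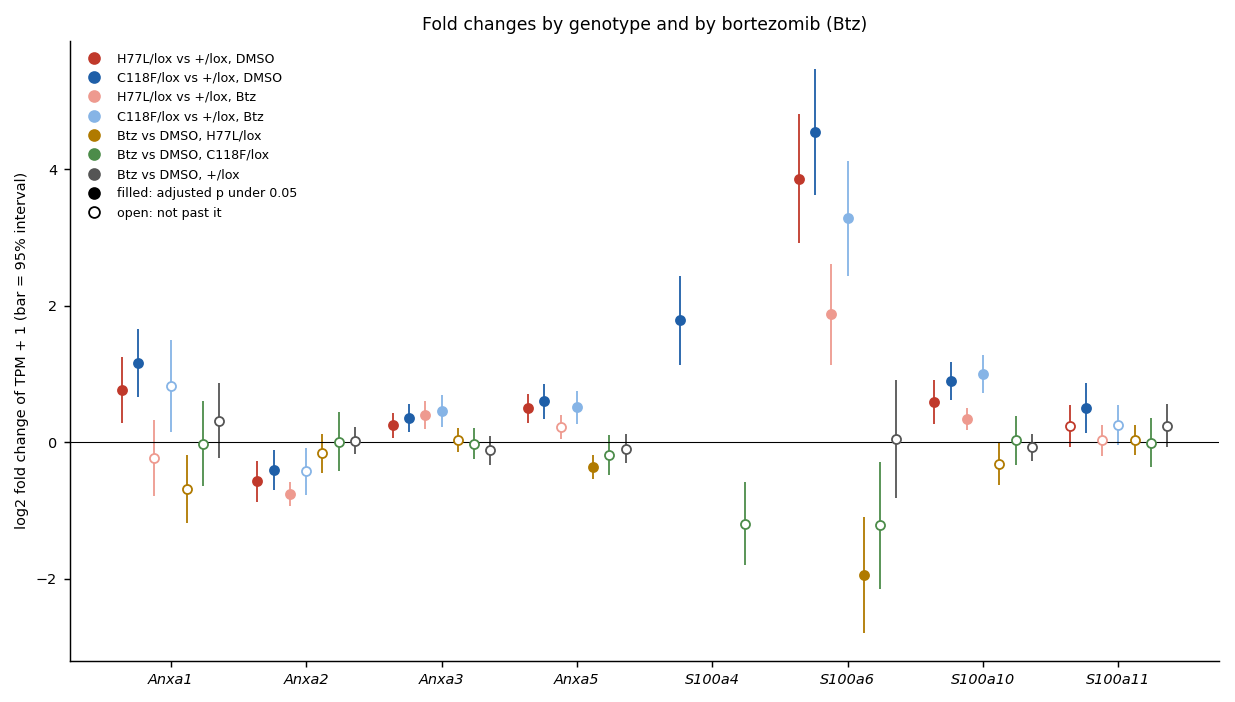
Log2 fold changes of TPM + 1 (points) with 95% intervals (bars) for the 8 genes in 4 comparisons of knock-in with control mice and in the 3 bortezomib comparisons. Filled points have an adjusted p under 0.05, S100a6 reaches 4.55, Anxa2 lies below 0 in all 4 genotype comparisons, and genes that did not pass the filter on low values have no point.

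S100a10 and Anxa2, the light chain and the annexin of 1 heterotetramer that binds plasminogen and tethers membrane to actin, moved in opposite directions under DMSO in both lines. S100a10 ran from 505 over 611 to 725 TPM in +/lox DMSO mice, from 629 over 905 to 1433 TPM in H77L/lox DMSO mice and from 810 over 1181 to 1373 TPM in C118F/lox DMSO mice. It was higher by 0.59 on the log2 scale in H77L/lox (SE 0.15, adjusted p = 0.00669) and by 0.89 in C118F/lox mice (SE 0.13, 1.5e-04), and only the C118F/lox mice did not overlap the controls. Under bortezomib it rose by 0.34 (SE 0.08, 0.00338) and 0.99 (SE 0.13, 5.5e-05), with no overlap in either line, though the H77L/lox call was lost when all 35 mice shared 1 fit (adjusted p = 0.0707).

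Anxa2 was the only member called lower in the knock-in mice. It ran from 836 over 922 to 1148 TPM in +/lox DMSO mice, from 488 over 586 to 963 TPM in H77L/lox DMSO mice and from 530 over 767 to 849 TPM in C118F/lox DMSO mice, with overlap of both lines and controls. The log2 fold change was -0.58 (SE 0.14, adjusted p = 0.00453) in H77L/lox and -0.41 (SE 0.14, 0.0374) in C118F/lox mice, and the C118F/lox call was lost when any of 7 of the 12 mice was left out (+/lox replicates 1, 3, 4 and 6, C118F/lox replicates 2, 3 and 4, adjusted p = 0.0522 to 0.0888). Under bortezomib all 6 H77L/lox mice (478 to 680 TPM) were below all 6 controls (880 to 991 TPM), with a log2 fold change of -0.76 (SE 0.08, 4.9e-06), where 5.3% of all genes were lower without overlap. The 5 C118F/lox Btz mice had 520, 582, 596, 976 and 983 TPM, so that replicates 3 and 4 lay in the control range, and the log2 fold change was -0.43 (SE 0.16, 0.0648). Without either of these replicates the adjusted p was 0.0206 and 0.0202.

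The ratio of the pair separated every knock-in mouse from every control. How many other pairs of genes do so was not counted. The mean log2 ratio of S100a10 to Anxa2 (each TPM + 1) was -0.61 ± 0.11 (SD, n = 6) in +/lox DMSO and -0.71 ± 0.12 (n = 6) in +/lox Btz mice, so Anxa2 mRNA exceeded S100a10 mRNA in all 12 controls. It was 0.55 ± 0.10 in H77L/lox DMSO, 0.69 ± 0.25 in C118F/lox DMSO and 0.40 ± 0.17 in H77L/lox Btz mice (n = 6 each), and 0.71 ± 0.16 (n = 5) in C118F/lox Btz mice. The lowest knock-in mouse was at 0.14 and the highest control at -0.39. The differences from the controls were 1.16, 1.30 and 1.11, each with an exact permutation p of 0.00216 (two-sided, 0.00649 adjusted over 9 comparisons), and 1.42 in C118F/lox Btz mice with an exact permutation p of 0.00433 (adjusted 0.00974). Both are the smallest values that groups of these sizes allow. Without the 7 libraries with markers of other cells the differences under DMSO were 1.18 and 1.21, with no overlap and adjusted p-values of 0.0804 and 0.103. Their unadjusted p-values in the exact permutation test, 0.0357 and 0.0571, are the smallest that these smaller groups allow. Mice with more of one transcript had more of the other: after the group means were removed, Pearson r between Anxa2 and S100a10 over the 35 mice was 0.804, while over the raw values it was -0.112. The groups thus differed in the ratio and the mice within a group in the joint level.

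**Figure D3:**
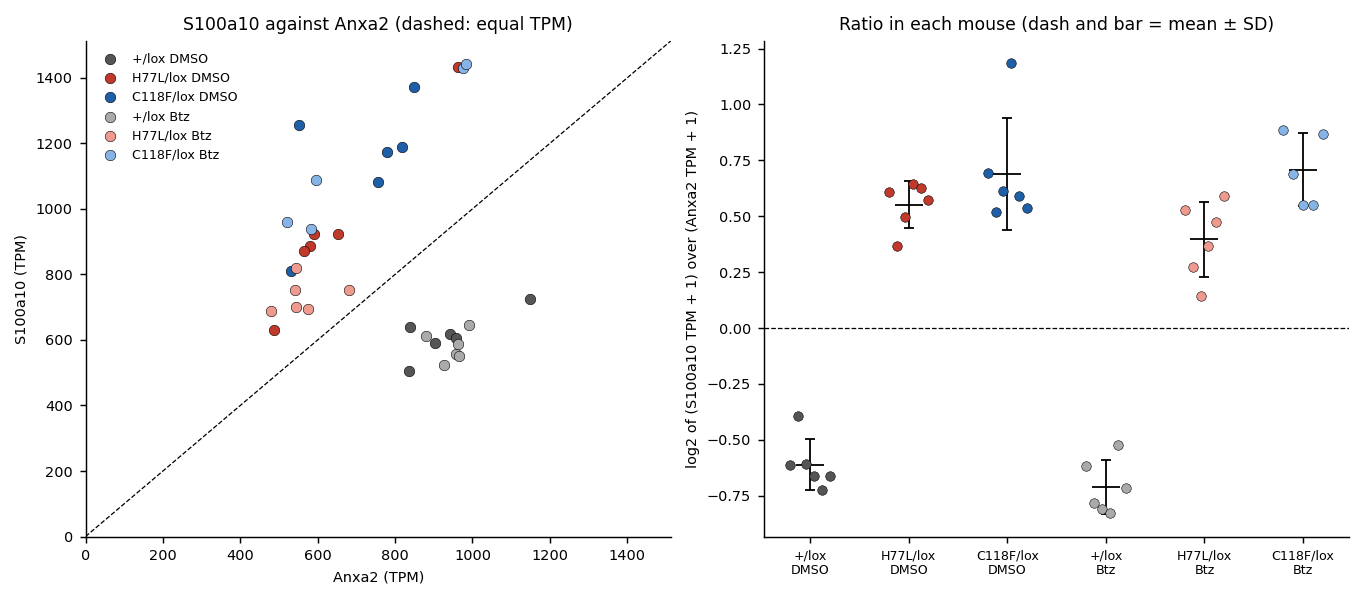
Left, S100a10 against Anxa2 (both in TPM) in the 35 mice, with the dashed line at equal TPM; right, the log2 ratio of the 2 transcripts in each mouse by group, with mean ± SD. All 12 +/lox mice lie below the line and below 0, from -0.83 to -0.39, and all 23 knock-in mice above, from 0.14 to 1.18.

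Anxa1, an annexin that acts as an anti-inflammatory ligand of formyl peptide receptors once secreted, was higher in the knock-in mice under DMSO. It ran from 447 over 504 to 639 TPM in +/lox, from 572 over 842 to 1965 TPM in H77L/lox and from 661 over 1202 to 1926 TPM in C118F/lox mice. The C118F/lox mice did not overlap the controls and the H77L/lox mice did, with log2 fold changes of 1.16 (SE 0.23, adjusted p = 0.00178) and 0.76 (SE 0.23, 0.0145). Under bortezomib the H77L/lox mice, at 436 to 756 TPM, were within the range of the controls (400 to 1750 TPM, log2 fold change -0.23, SE 0.26, adjusted p = 0.578). The C118F/lox mice had 777, 898, 1048, 1552 and 1694 TPM (0.82, SE 0.32, 0.0661). The highest control under bortezomib was replicate 6 at 1750 TPM, with the next at 589 TPM, and without it the C118F/lox difference was 1.11 with an adjusted p of 0.001 (0.963 and 0.0452 without C118F/lox replicate 1). With all mice kept and the mouse number, described next, in the fit, the C118F/lox difference under bortezomib changed sign.

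Anxa1 also followed the mouse number printed in the labels. Over the 35 mice Pearson r of its log2 level with the number was 0.739, and 0.79 after the group means were removed, where S100a6 gave 0.376 and -0.002. After the group means were removed, Anxa2 (0.538), S100a10 (0.427) and S100a11 (0.422) also went up with the number, and Anxa3 gave 0.225, S100a4 0.062 and Anxa5 -0.29. The labels do not say what the number stands for, and mice of the +/lox groups have mostly low numbers. C118F/lox Btz replicates 1 to 5 had the numbers 47614, 47615, 50091, 50095 and 50096. When the fit included the mouse number, the Anxa1 difference in H77L/lox DMSO mice was 0.30 (adjusted p = 0.386), that of S100a10 0.37 (0.163) and that of Anxa3 0.13 (0.383), so 3 members stayed called in place of 6, while S100a6 gave 3.44 (8.9e-04).

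**Figure D4:**
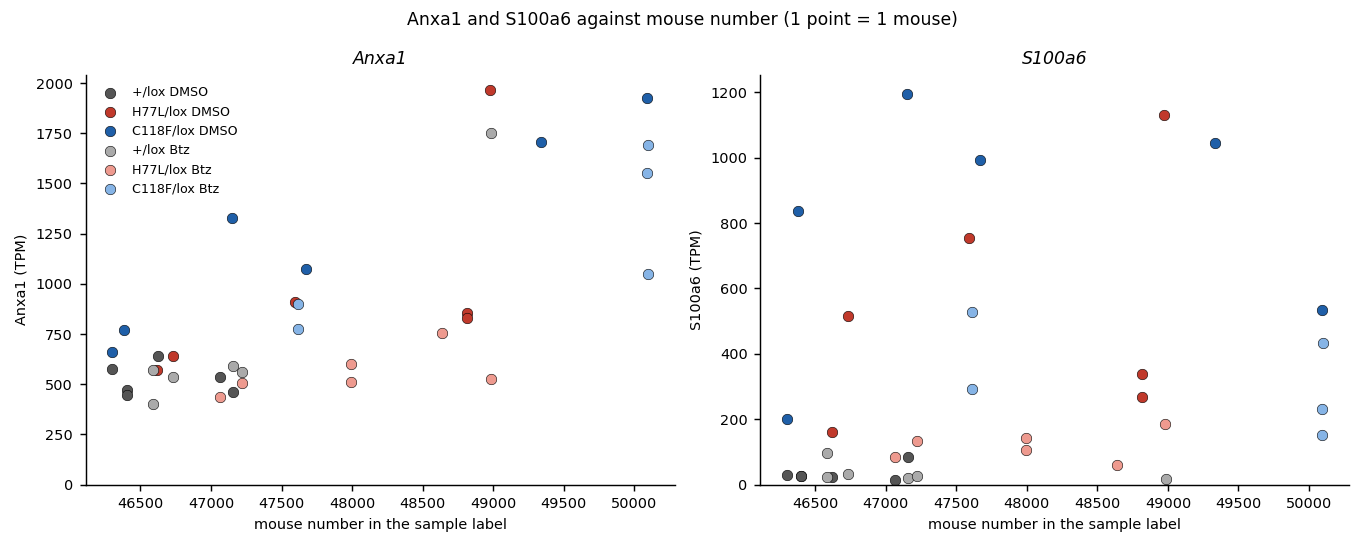
Anxa1 (left) and S100a6 (right) in TPM against the mouse number in the sample labels, with 1 point per mouse coloured by group. Anxa1 reaches 1750 and 1965 TPM in a +/lox Btz and an H77L/lox DMSO mouse with high numbers, and S100a6 differs by group at similar numbers.

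Anxa5, the annexin used to mark exposed phosphatidylserine, and Anxa3, an annexin with phospholipase-inhibiting activity, rose by smaller factors. Anxa5 ran from 787 over 935 to 1021 TPM in +/lox DMSO, from 1078 over 1312 to 1516 TPM in H77L/lox DMSO and from 1129 over 1373 to 1670 TPM in C118F/lox DMSO mice. No knock-in mouse under DMSO overlapped the controls (log2 fold change 0.50, SE 0.10, adjusted p = 0.00114, and 0.60, SE 0.12, 0.00175). Under bortezomib the C118F/lox mice stayed apart from the controls (0.51, SE 0.12, 0.0045) and the H77L/lox mice overlapped them (0.22, SE 0.08, 0.067, and 0.0473 or 0.0377 without +/lox replicate 1 or 2). Anxa3 had group means of 584 TPM ± 42.2 in +/lox DMSO, 695 TPM ± 70.3 in H77L/lox DMSO and 749 TPM ± 75.3 in C118F/lox DMSO mice (SD, n = 6 each), and it was higher in all 4 comparisons, by 0.25 (adjusted p = 0.0326), 0.36 (0.0127), 0.40 (0.00571, H77L/lox Btz) and 0.46 (0.00567, C118F/lox Btz). The smallest of these, in H77L/lox DMSO mice, was no longer called without +/lox replicate 2 or 3 or H77L/lox replicate 1, 3 or 4 (adjusted p = 0.0588 to 0.0773).

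S100a11, the most abundant member and a partner of Anxa1, was called in 1 of the 4 comparisons. It ran from 1534 over 2287 to 2723 TPM in +/lox DMSO, from 2173 over 2656 to 2919 TPM in H77L/lox DMSO and from 2168 over 3258 to 3538 TPM in C118F/lox DMSO mice. The groups overlapped, and the call was that of C118F/lox mice under DMSO (0.50, SE 0.17, adjusted p = 0.037), a call lost without any of 8 of the 12 mice (+/lox replicates 1, 3 and 5, C118F/lox replicates 1, 2, 4, 5 and 6, adjusted p = 0.0575 to 0.0821). The differences were 0.24 (95% interval -0.08 to 0.55) in H77L/lox DMSO, 0.02 (-0.20 to 0.25) in H77L/lox Btz and 0.25 (-0.04 to 0.55) in C118F/lox Btz mice. The annotation holds a processed pseudogene copy, S100a11-ps, and 1 location of reads that match several places was kept at random, so the S100a11 level is uncertain.

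S100a4 was low in all mice. In C118F/lox DMSO mice it ran from 1.59 over 4.03 to 6.18 TPM, in H77L/lox DMSO mice from 0 over 3.30 to 9.32 TPM, and in C118F/lox Btz mice it was between 0.449 and 1.61 TPM. In H77L/lox Btz mice it was listed at 0 in 5 of 6. It passed the filter on low values in the genotype comparisons only through the C118F/lox DMSO group, so its difference there (1.78, SE 0.30, adjusted p = 5.2e-04) is given without being read as support for a change. In H77L/lox DMSO mice it passed the filter once replicate 5, the mouse at 0, was left out, and calls of S100a4 made that way are not counted here either.

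Between bortezomib and DMSO no member was called in +/lox or C118F/lox mice, and 2 were lower with bortezomib in H77L/lox mice. In H77L/lox mice S100a6 fell by 1.95 on the log2 scale (SE 0.40, 95% interval -2.79 to -1.10, adjusted p = 0.0352) and Anxa5 fell by 0.37 (SE 0.08, 0.0437), 2 of the 7 members where 1.16% of all genes were called, 0.74% lower and 0.416% higher. Of 5 mesangial and fibroblast markers tested in that comparison 1 was called lower (median log2 fold change of the 5 -0.44). Of 5 parietal epithelial markers none was called (median -0.56). The part of these markers was not tested. The S100a6 ranges, 59.3 to 184 TPM with and 162 to 1130 TPM without bortezomib, overlapped in the lowest DMSO mouse, replicate 5, and the highest Btz mouse, replicate 1. Anxa1 (-0.68, adjusted p = 0.126) and S100a10 (-0.32, 0.22) were lower without passing. The calls were close to the threshold: that of S100a6 was lost in 7 of 12 omissions of 1 mouse (H77L/lox DMSO replicates 2 and 4, H77L/lox Btz replicates 2 to 6, adjusted p = 0.0501 to 0.0879) and that of Anxa5 in 9 of 12 (DMSO replicates 1 to 4, Btz replicates 2 to 6, 0.0501 to 0.105).

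In +/lox mice the S100a6 difference between bortezomib and DMSO was 0.05 (95% interval -0.81 to 0.90) and that of Anxa2 0.02 (-0.18 to 0.22). No gene of 10659 was called there (0.0%), with 923 at an unadjusted p under 0.05. In C118F/lox mice S100a6 had a difference of -1.22 (-2.15 to -0.29, adjusted p = 0.798), S100a4 -1.20 (0.522) and Anxa5 -0.19 (0.82), and no gene of 10814 was called (0.0%), with 634 at an unadjusted p under 0.05. The test of the difference itself did not separate the genotypes: the bortezomib change of S100a6 in H77L/lox minus that in +/lox mice was -1.99 (SE 0.62, 95% interval -3.26 to -0.72, adjusted p = 0.11), and that in C118F/lox minus that in H77L/lox mice was 0.73 (SE 0.64, -0.59 to 2.04, 0.733). For Anxa1 the H77L/lox minus +/lox difference was -0.996 (-1.78 to -0.22, 0.165). No member and no gene was called in the 3 such tests (0.0%), although 2037, 560 and 840 genes had an unadjusted p under 0.05.

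The knock-in lines were set against each other under each treatment. Under DMSO the 7 members other than S100a4 were all higher in C118F/lox mice, by 0.10 (Anxa5) to 0.68 (S100a6, 95% interval -0.36 to 1.72), and neither these nor any of 10809 genes passed (0.0% called, 416 at an unadjusted p under 0.05). The Anxa5 difference changed sign without the 7 libraries with markers of other cells. Under bortezomib Anxa1 (1.06, SE 0.19, adjusted p = 0.0207), S100a10 (0.65, SE 0.12, 0.0213) and S100a6 (1.41, SE 0.31, 0.0468) were higher in C118F/lox mice, 3 of 7 members where 0.972% of all genes were called, 0.713% higher and 0.259% lower. All 5 C118F/lox mice exceeded all 6 H77L/lox mice in Anxa1 (777 to 1694 against 436 to 756 TPM) and in S100a10 (938 to 1441 against 690 to 821 TPM), as 1.22% of all genes did, and for S100a6 the ranges overlapped (151 to 527 against 59.3 to 184 TPM). The S100a6 call was lost without any of 8 of the 11 mice (H77L/lox Btz replicates 2 to 6, C118F/lox Btz replicates 2, 4 and 5, adjusted p = 0.0642 to 0.112). That of Anxa1 was lost in 4 omissions (H77L/lox Btz replicates 2, 4 and 6, C118F/lox Btz replicate 4, 0.0506 to 0.0573) and that of S100a10 in 3 (H77L/lox Btz replicates 2 and 4, C118F/lox Btz replicate 4, 0.0516 to 0.058). None was called once the mouse number entered the fit. The log2 ratio of S100a10 to Anxa2 was also higher in C118F/lox Btz mice, by 0.31 (two-sided exact permutation test, adjusted p = 0.0312), a call lost without any of 7 of the 11 mice (H77L/lox Btz replicates 2 to 5, C118F/lox Btz replicates 1, 2 and 5, 0.0571 to 0.0686). When the 7 libraries with markers of other cells were left out, none of which is in these groups, its adjusted p over the 9 comparisons was 0.0519.

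In the order of group means, neighbours of a member overlapped in every case. S100a6 ran from C118F/lox DMSO (801 TPM) over H77L/lox DMSO (528), C118F/lox Btz (326) and H77L/lox Btz (119) to +/lox Btz (36.1) and +/lox DMSO (33.9 TPM), and the steps down to H77L/lox Btz and to +/lox Btz exceeded the larger SD of the groups beside them. For S100a10 only the step from H77L/lox Btz (735 TPM) to +/lox DMSO (614 TPM) did so, and for Anxa1, Anxa2 and S100a11 no step did. Summed over the 8 members, the level was 5835 TPM ± 678 in +/lox DMSO, 7655 TPM ± 1483 in H77L/lox DMSO and 9193 TPM ± 1566 in C118F/lox DMSO mice (SD, n = 6 each), and 6287 TPM ± 534, 6316 TPM ± 456 and 8502 TPM ± 1256 under bortezomib (n = 6, 6 and 5).

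Other annexins moved in both directions. Of the 8 listed, 5 passed the filter, Anxa9 only through the knock-in groups. With Anxa9 counted, under DMSO 3 rose and 1 fell in each knock-in line, and under bortezomib 2 rose and 1 fell (in C118F/lox DMSO mice 2 were called in all without +/lox replicate 6), where 44.8%, 30.4%, 23.6% and 27.5% of all genes were called in H77L/lox and C118F/lox mice under DMSO and under bortezomib, in this order. Anxa6, an annexin of endosomes and cortical actin, rose in all 4 comparisons, by 0.78 (adjusted p = 1.6e-06) and 0.72 (3.5e-04) under DMSO and 0.58 (3.8e-04) and 0.67 (0.00118) under bortezomib. Anxa4, an annexin of epithelial membranes, fell in all 4, by 0.37 (0.00182), 0.42 (0.00264), 0.28 (0.0134) and 0.50 (0.0018) on the log2 scale. Anxa9 was low, with 2.90 TPM in +/lox DMSO and 7.12 TPM in C118F/lox DMSO mice. Because of how it passed the filter, its calls are no support for a change. Anxa11 rose under DMSO only at the threshold used. Anxa9 overlaps Mindy1 (at most 26.5 TPM) and Anxa11 overlaps Plac9 (at most 43.6 TPM), each on the opposite strand. The libraries do not mark strand. Anxa7 was not called, Anxa10 was at 0 in every group, Anxa13 had group means of at most 0.154 TPM and Anxa8 of at most 2.19 TPM.

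Of the 13 other S100 genes only 4 passed the filter, and 2, 0, 1 and 2 of them were called in the 4 comparisons, in the same order, where 44.8%, 30.4%, 23.6% and 27.5% of all genes were. Without +/lox DMSO replicate 2 the count in C118F/lox DMSO mice was 1, and without +/lox Btz replicate 6 that in H77L/lox Btz mice was 2. The count in C118F/lox Btz mice ran from 1 to 3 when single mice were left out, and was 1 without +/lox Btz replicate 1, 2, 4 or 5 or C118F/lox Btz replicate 4 or 5. In H77L/lox DMSO mice S100a13, which takes part in unconventional secretion, and S100a16 fell, by 0.47 (adjusted p = 0.0138) and 0.43 (0.00128), and in C118F/lox DMSO mice none of the 4 was called. Under bortezomib S100a1 rose in both lines, by 0.50 (0.00563) and 0.51 (0.0103). S100a1 and S100a13 overlap on opposite strands, as do S100a13 and Chtop. The libraries do not mark strand, so reads in these overlaps cannot be told apart. S100g, the calbindin of kidney tubules, was called lower in C118F/lox Btz mice (-3.03, SE 0.95, 0.0275), with a mean of 4.43 TPM against 75.7 TPM, and tubule markers had median sums of 22.0 and 120.5 TPM there, whose part was not tested. S100g passed the filter there only through the controls, so this call, 1 of the 2 counted above, is no support for a change. S100a8 and S100a9, the calgranulins of neutrophils and monocytes, were at 0 on average in 5 of the 6 groups and at 0.912 and 0.859 TPM in +/lox DMSO mice.

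Among 15 partners and receptors, 8 passed the filter, and 4, 3, 2 and 4 of them were called in the 4 comparisons, in the same order, whose shares of all genes are those given for the annexins. The count of 2 in H77L/lox Btz mice ran from 1 to 3, and was 1 without +/lox Btz replicate 3 or 4 or H77L/lox Btz replicate 2, 5 or 6. Ahnak, a giant scaffold that the Anxa2 and S100a10 complex recruits to the membrane, rose in H77L/lox DMSO (0.84, adjusted p = 1.7e-04), C118F/lox DMSO (0.64, 0.0325) and C118F/lox Btz mice (0.72, 0.00225), and had a difference of 0.11 in H77L/lox Btz mice. Myh9, the non-muscle myosin heavy chain bound by S100a4, rose in H77L/lox DMSO (1.28, 3.8e-04), H77L/lox Btz (0.52, 0.00483) and C118F/lox Btz mice (0.60, 0.0062). Plat, the plasminogen activator that docks on S100a10, fell in all 4 comparisons, by 0.35 to 0.61 on the log2 scale, and Ager, a receptor of secreted S100 proteins, fell in all except H77L/lox Btz mice, from a mean of 12.4 TPM to 4.11 TPM in H77L/lox DMSO mice. The formyl peptide receptor genes Fpr1 and Fpr2 had group means of at most 0.197 TPM.

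Of 15 membrane repair genes, 12 passed the filter, and 5 rose and 1 fell in H77L/lox DMSO mice, 3 rose in C118F/lox DMSO, 1 rose in H77L/lox Btz and 5 rose in C118F/lox Btz mice, where 22.4%, 13.7%, 12.5% and 15.1% of all genes were higher. Myof, a ferlin of membrane fusion, rose by 1.11 (adjusted p = 2.9e-05), Pdcd6ip, the ESCRT adaptor ALIX, by 0.60 (4.7e-05), and Capn2, a calcium-activated protease, by 0.83 (1.8e-04) in H77L/lox DMSO mice. The same 3 genes passed in C118F/lox DMSO mice, by 0.83 (0.0466), 0.50 (0.0243) and 0.57 (0.0492), a count that fell to 0 once the mouse number entered the fit and ran from 0 to 5 when single mice were left out: it was 0 without +/lox DMSO replicate 1 or 6 or C118F/lox DMSO replicate 2, 5 or 6, 1 without +/lox DMSO replicate 2, 3 or 4 or C118F/lox DMSO replicate 3, and 5 without C118F/lox DMSO replicate 4. The count in H77L/lox Btz mice was 0 without +/lox Btz replicate 3 or 4 or H77L/lox Btz replicate 5, and that in C118F/lox Btz mice was 3 without +/lox Btz replicate 3 or 5 or C118F/lox Btz replicate 4. In the comparisons of bortezomib with DMSO none of the genes of these 4 lists was called in any genotype.

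**Figure D5:**
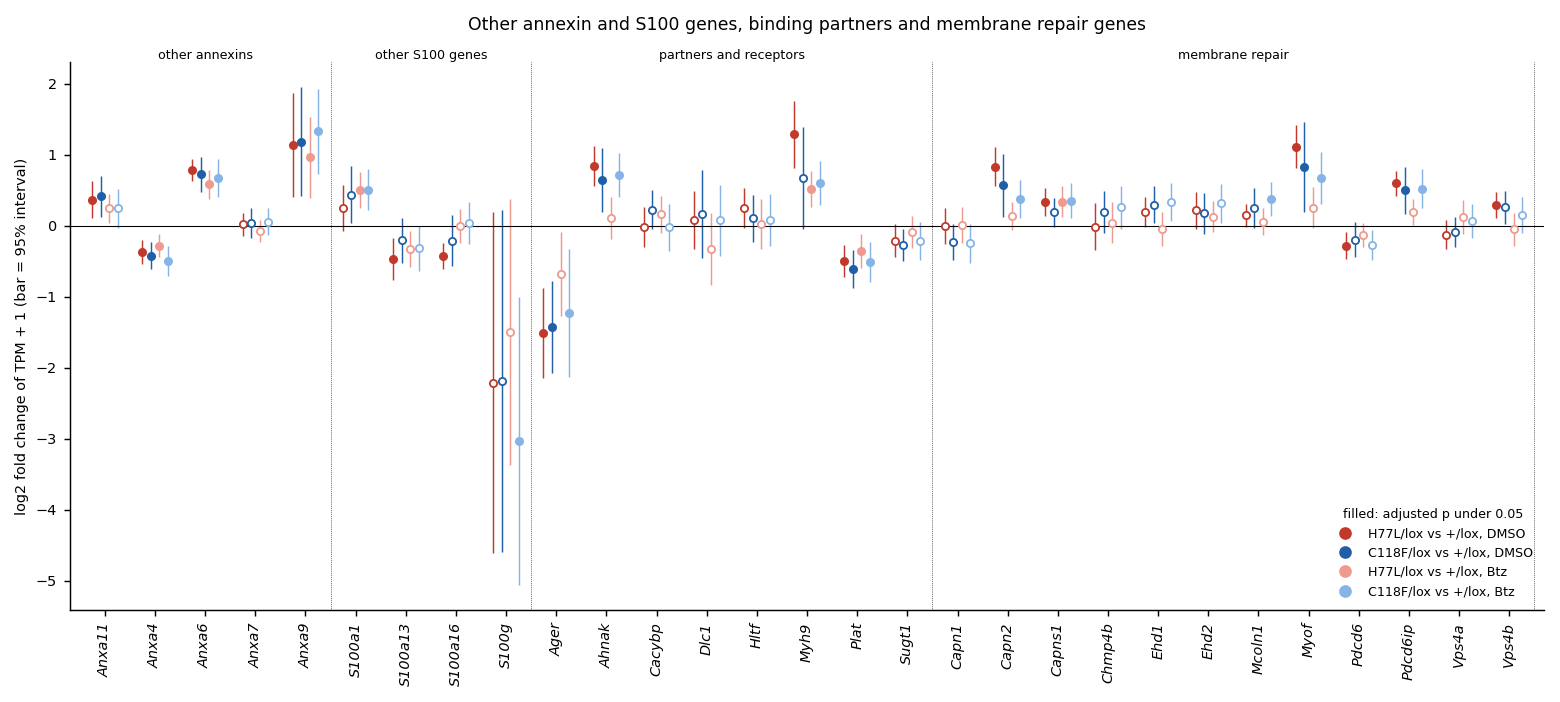
Log2 fold changes of TPM + 1 with 95% intervals for the other annexin and S100 genes, binding partners and receptors, and membrane repair genes that passed the filter, in 4 comparisons of knock-in with control mice. Filled points have an adjusted p under 0.05, with Anxa6 above and Anxa4 below 0 in all 4.

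The genes most like each member were ranked by Pearson r of log2(TPM + 1) over the 35 mice among 11306 genes outside both families, which is a description since the mice share genotypes and treatments. S100a6 was closest to Glipr2 (r = 0.961, and 0.845 after the group means were removed) and Crct1 (0.961 and 0.735). Anxa1 was closest to Emp1 (0.89) and Tppp3 (0.88), S100a10 to Atp6v1b2 (0.915) and Crip2 (0.913), Anxa5 to Ftl1 (0.904) and Phlda3 (0.903), and Anxa2 to Tollip (0.855) and Ostf1 (0.853). Anxa3 (Dstn, 0.846, and Rexo2, 0.835), S100a4 (Pik3ip1, 0.787, and Tnfrsf9, 0.786) and S100a11 (Tpm3, 0.751, and Acyp2, 0.691) had looser neighbours. Among the members, S100a6 and Anxa5 were the closest pair (0.892, and 0.531 after the group means were removed).

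Crct1, which encodes a cysteine-rich protein of cornified epithelium, lies in the chromosome 3 interval between S100a13 and S100a10 (90416091 to 93474510), which holds the 4 S100 members and 76 protein-coding genes. Of the 10 tested in H77L/lox DMSO mice, 3 were higher (Crct1, S100a6 and S100a10) and 2 lower (S100a13 and S100a16), where 23.1% and 21.6% of all protein-coding genes tested were called. Of the 11 other than S100a4 tested in C118F/lox DMSO mice, 5 were higher (Crct1, Sprr1a, S100a6, S100a10 and S100a11) and none lower, where 14.1% of all were higher. Crct1 and S100a6 were also the 2 genes, of 10 tested, of the interval that fell with bortezomib in H77L/lox mice, where 0.773% of all protein-coding genes were lower. The interval was chosen after the values were seen, and its ends are S100 genes. Apart from Crct1 and Sprr1a, the genes called higher in it were members already counted above, as was S100a6 with bortezomib. The shares beside these counts are therefore no test of the interval. Between bortezomib and DMSO in +/lox mice only 9 of its genes were tested. Some genes tested in the knock-in comparisons thus passed the filter only through the knock-in groups. Calls of Crct1 and Sprr1a, whose levels in the controls are not given here, are therefore no support for a change.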

How the data were processed

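RNA from sorted podocytes of 35 mice was made into libraries with a kit that does not mark strand. According to the study's methods and the submitters' processing notes, reads were trimmed (Trim Galore 0.6.7), aligned to GRCm39 with STAR, assessed for duplicates with Picard and counted with featureCounts 1.6.3, with 1 location kept at random for reads matching several. The deposited matrix holds TPM (length-scaled transcript shares) computed by the authors in a step not given in the sources used here, so no count test was run and absolute read depth is unknown.

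Here 32776 of 33292 identifiers were matched to GENCODE vM39. Log2(TPM + 1) was fitted with limma 3.58.1 (R 4.3.3, empirical Bayes with trend) on the mice of the compared groups, for genes that exceeded 1 TPM in all mice of one compared group or the other (the study's filter), with Benjamini-Hochberg adjustment over all genes tested and calls at adjusted p under 0.05. Fold changes on this scale are understated for low genes. The S100a10 to Anxa2 ratio was compared by two-sided exact permutation tests. The fits were tested on simulated data. All 8 members are described in every comparison. Called genes of other lists are named, at most 4 per list and comparison, lowest p first, and markers, genes at or near 0, Crct1 and Sprr1a were named after their values were seen. Also named are the 2 genes most like each member by Pearson r. Members and lists were chosen with earlier results of these data known. Alternatives were a pseudocount of 0.1, no filter, a mean TPM above 1, all 35 mice in 1 fit, mouse number as a covariate, median-of-ratios scaling, robust fitting, array weights, each mouse left out and, added after the values were seen, 7 libraries left out. One podocyte marker, and the summed level of its list, are not reported here.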

Additional observations from a re-analysis of the deposited data

Results flagged for a closer look

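Within each group of 5 or 6 mice, the highest and the lowest value were set against the rest by Dixon's criterion. Chance meets it in about 1 of 20 groups of normally distributed values. Levels were tested as TPM, some of them 0, so that rate may not hold here. It was met in 9 of the 54 groups tested. Anxa1 reached 1965 TPM in replicate 6 of the H77L/lox DMSO group and 1750 TPM in replicate 6 of the +/lox Btz group. S100a4 reached 5.17 TPM in a +/lox Btz mouse and 0.302 TPM in an H77L/lox Btz mouse. The group of the latter was otherwise at 0, where the criterion flags a value of any size. S100a6 stood out at 97.5 TPM in replicate 1 of the +/lox Btz group. S100a11 was lowest at 2168 TPM in a C118F/lox DMSO mouse and highest at 4145 TPM in replicate 3 of the C118F/lox Btz group. The log2 ratio of S100a10 to Anxa2 was highest at -0.39 in a +/lox DMSO mouse and at 1.18 in a C118F/lox DMSO mouse, both still on their genotype's side of 0. No bortezomib response of a member differed between genotypes by its own test.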

How the results depend on the processing

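The S100a6 calls in the 4 comparisons of knock-in with control mice held in every alternative run. TPM give no absolute read depth, so counting error could not be given apart from the spread between mice. The limma p-values rest on that spread, drawn toward a trend over all genes. No paired analysis was run, since replicate numbers follow accession order and the labels name no pairs. Some mice have neighbouring mouse numbers, within and across groups, and the tests treated all mice as independent. Apart from leaving out single mice, 728 of 794 values of single members kept their direction and side of the threshold, 33 lost a call, 9 gained one and 24 changed sign. The causes were not tested.

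With the mouse number as covariate, 3 members were called in H77L/lox against +/lox mice under DMSO, 1 passed both stricter cutoffs in H77L/lox Btz mice, and 0 were called between the lines under bortezomib. For bortezomib against DMSO in H77L/lox mice, 0 members were called with no filter and 1 each with a mean TPM above 1, all 35 mice in 1 fit or robust fitting. Between the lines under bortezomib, 0 were called with no filter and 1 with all 35 mice. Without the 7 libraries, a setting chosen after seeing the data, the log2 ratio differences under DMSO, 1.18 and 1.21, were no longer called, with p-values at the smallest that these group sizes allow, so the loss says nothing of their stability. That between the lines under bortezomib, 0.313 with the same mice, had an adjusted p of 0.0519 there, since the adjustment runs over all 9 comparisons. When single mice were left out, members past both stricter cutoffs ran from 1 to 2 in H77L/lox DMSO and from 0 to 1 in H77L/lox Btz mice, members called from 0 to 3 for bortezomib in H77L/lox mice and between the lines under bortezomib, and from 0 to 1 in the bortezomib response of H77L/lox minus +/lox mice. The second member past the stricter cutoffs in H77L/lox DMSO mice, the third for bortezomib in H77L/lox mice and the 1 in the response were S100a4, which passed the filter there only through the H77L/lox DMSO group once its mouse at 0, replicate 5, was left out, and are no support for a change. The log2 ratio of S100a10 to Anxa2 then ran from -0.20 to -0.11 for bortezomib in H77L/lox mice and from 0.26 to 0.35 between the lines under bortezomib.

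Among all genes, 4907 were called in H77L/lox against +/lox mice under DMSO and 2873 with the mouse number. For bortezomib in H77L/lox mice 125 were called, against 0 with no filter, 58 with all 35 mice, 223 without the 7 libraries and 0 to 270 with single mice left out. Between the lines under bortezomib 105 were called, against 13 with no filter, 30 with all 35 mice, 24 with the mouse number, 348 with array weights and 35 to 279 with single mice left out. For bortezomib in C118F/lox mice 31 were called with all 35 mice in place of 0.

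Including the mouse number gave values of the opposite sign for single members, namely S100a11 -0.061 in H77L/lox against +/lox mice under bortezomib, Anxa1 -0.067 in C118F/lox against +/lox mice under bortezomib, Anxa1 -0.052 for bortezomib against DMSO in +/lox mice, Anxa2 -0.22 and S100a10 -0.10 for bortezomib against DMSO in C118F/lox mice and Anxa2 -0.030 in the bortezomib response of C118F/lox minus H77L/lox mice. Leaving out the 7 libraries did so for S100a11 -0.0007 in H77L/lox against +/lox mice under bortezomib, Anxa2 -0.10 for bortezomib against DMSO in +/lox mice, S100a11 -0.020 for bortezomib against DMSO in H77L/lox mice, Anxa2 -0.013 and S100a11 0.056 for bortezomib against DMSO in C118F/lox mice, Anxa5 -0.013 and S100a4 -0.31 in C118F/lox against H77L/lox mice under DMSO, Anxa2 0.085 and Anxa5 0.010 in the bortezomib response of C118F/lox minus +/lox mice and S100a11 0.076 in the bortezomib response of C118F/lox minus H77L/lox mice. Array weights did so for Anxa2 -0.0096 for bortezomib against DMSO in +/lox mice, Anxa1 0.23 and S100a11 0.11 for bortezomib against DMSO in C118F/lox mice, Anxa1 0.045 and Anxa2 0.20 in the bortezomib response of C118F/lox minus +/lox mice and S100a11 0.11 in the bortezomib response of C118F/lox minus H77L/lox mice. Scaling by median of ratios did so for Anxa2 -0.064 and S100a10 -0.044 for bortezomib against DMSO in C118F/lox mice. When single mice were left out, these members changed sign. Anxa1 ran from -0.37 to 0.057 and S100a11 ran from -0.013 to 0.077 in H77L/lox against +/lox mice under bortezomib. Anxa2 ran from -0.0088 to 0.083 and S100a6 ran from -0.29 to 0.35 for bortezomib against DMSO in +/lox mice. Anxa3 ran from -0.0059 to 0.068 and S100a11 ran from -0.020 to 0.081 for bortezomib against DMSO in H77L/lox mice. Anxa1 ran from -0.18 to 0.13, Anxa2 ran from -0.12 to 0.11, Anxa3 ran from -0.056 to 0.016, S100a10 ran from -0.073 to 0.10, S100a11 ran from -0.12 to 0.040 and the log2 ratio of S100a10 to Anxa2 ran from -0.025 to 0.12 for bortezomib against DMSO in C118F/lox mice. S100a4 ran from -0.22 to 0.45 in C118F/lox against H77L/lox mice under DMSO. Anxa2 ran from -0.14 to 0.091 in the bortezomib response of C118F/lox minus +/lox mice. S100a11 ran from -0.14 to 0.012 in the bortezomib response of C118F/lox minus H77L/lox mice.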
